A study of Mus musculus with 96 samples.

Results

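mir-132 and mir-212 are a pair of microRNA stem-loops that lie next to each other in the mouse genome. They were taken as the rows of the count table with the miRBase identifiers MI0000158 (mir-132) and MI0000696 (mir-212), which gave 2 of 1187 stem-loops. The data are small RNA libraries of the cortex of 96 mice from the Huntington's disease knock-in series, which form 12 groups of 8 (4 males and 4 females each). Every knock-in mouse was heterozygous, with 1 wild-type *Htt* allele and 1 allele carrying a CAG repeat of the length that names it, and the strain is given as C57BL/6. The groups were Q140, Q92, Q50 and Q20, wild-type (WT) mice caged with Q50 mice (the WT of the Q50 line) and WT mice caged with Q20 mice (the WT of the Q20 line), and each was sampled at the ages of 10 months and 6 months. The labels place Q140 and Q92 mice in cages of their own genotype, whereas the methods of the study describe cages shared by heterozygous and WT mice. Q140 and Q92 have no WT littermates among these libraries, so genotype and line cannot be told apart for them. Controls were the 24 libraries of an age from Q20 and both WT groups. Each line descends from 1 knock-in allele, and the comparisons of knock-in genotypes below share these controls.

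MicroRNAs are short RNAs cut from a hairpin precursor, the stem-loop, and they lower the output of messenger RNAs that match their seed, the bases near the 5′ end. mir-132 and mir-212 are transcribed together in neurons from a locus that the transcription factor CREB activates after synaptic activity and growth factors, and that the repressor REST can silence. miR-132 is known for promoting the growth and branching of dendrites.

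The mature sequences are shown because the members are close relatives in 1 arm and not in the other, with the seed (bases 2 to 8) in capitals. They are the RefSeq sequences, for which both members were matched.
miR-132-3p: uAACAGUCuacagccauggucg
miR-212-3p: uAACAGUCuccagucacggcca
miR-132-5p: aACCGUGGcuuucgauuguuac
miR-212-5p: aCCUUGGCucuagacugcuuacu
The 3p arms share their seed, and among 1679 mature mouse microRNA names in the RefSeq table only these 2 have it. The 3p arms are identical at 17 of 22 positions, the first 9 included. Counted from 1 at the 5′ end of miR-132-3p, with its base first, the differences are A10C, C14U, U17C, U20C and G22A. The 5p arms have different seeds and are identical at 9 of 22 positions. The count table has 1 value for each stem-loop, so the 3p and 5p arms were not separated.

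Both stem-loops lie on the plus strand of chromosome 11 in GRCm38.p6, the assembly known as mm10 to which the study aligned its reads. mir-212 comes first, at chr11:75173388-75173478, and mir-132 follows at chr11:75173682-75173747, with 203 bases between them. In the GENCODE annotation both fall in an intron of a transcript of the noncoding gene 1700016P03Rik (chr11:75172560-75177633).

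The total count of a library lay between 4797428 and 7651621 at 6 months. At 10 months it lay between 3698376 and 12142170. A screen of how close each library lay to the others of its age left 10 of 96 libraries out of the fits, among them 3 of the 4 Q92 females at 10 months. The sample names carry a field of the form L1, L2 or L3, called the L field here. What it stands for is not explained there. L1 and L2 were the values at 6 months, and L2 and L3 were those at 10 months apart from 2 Q50 libraries in L1. It served as the batch term. Replicate libraries came from separate mice. The files pair no stem-loop with a name, so the tissue could not be checked against marker microRNAs.

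mir-132 was among the most abundant stem-loops of the cortex. Levels are given as CPM (counts scaled to a common library total, here with TMM normalization), and across the 96 libraries mir-132 averaged 7752 CPM, 0.773% of all counts, and ranked 27 of 1187. mir-212 averaged 1690 CPM and ranked 69. Per length, as FPKM (fragments per kilobase of stem-loop, scaled to the library total), mir-132 averaged 117389 and mir-212 averaged 18534. The FPKM of mir-132 was 6.34 ± 0.64 times that of mir-212 (SD over 96 libraries). FPKM divides by the hairpin lengths, 66 bases for mir-132 and 91 for mir-212, whereas the mature arms are 22 or 23 bases long. The FPKM ratio is therefore larger than the ratio of the counts. The lowest count was 35161 for mir-132 and 6523 for mir-212, which gives a counting error of 0.533% and 1.24%. Within groups the SD of log2 CPM was 0.17 for mir-132 and 0.12 for mir-212, so the spread between libraries of a group was larger than the counting error. Each mouse gave 1 library, and variation between mice and between preparations cannot be told apart.

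**Figure D1:**
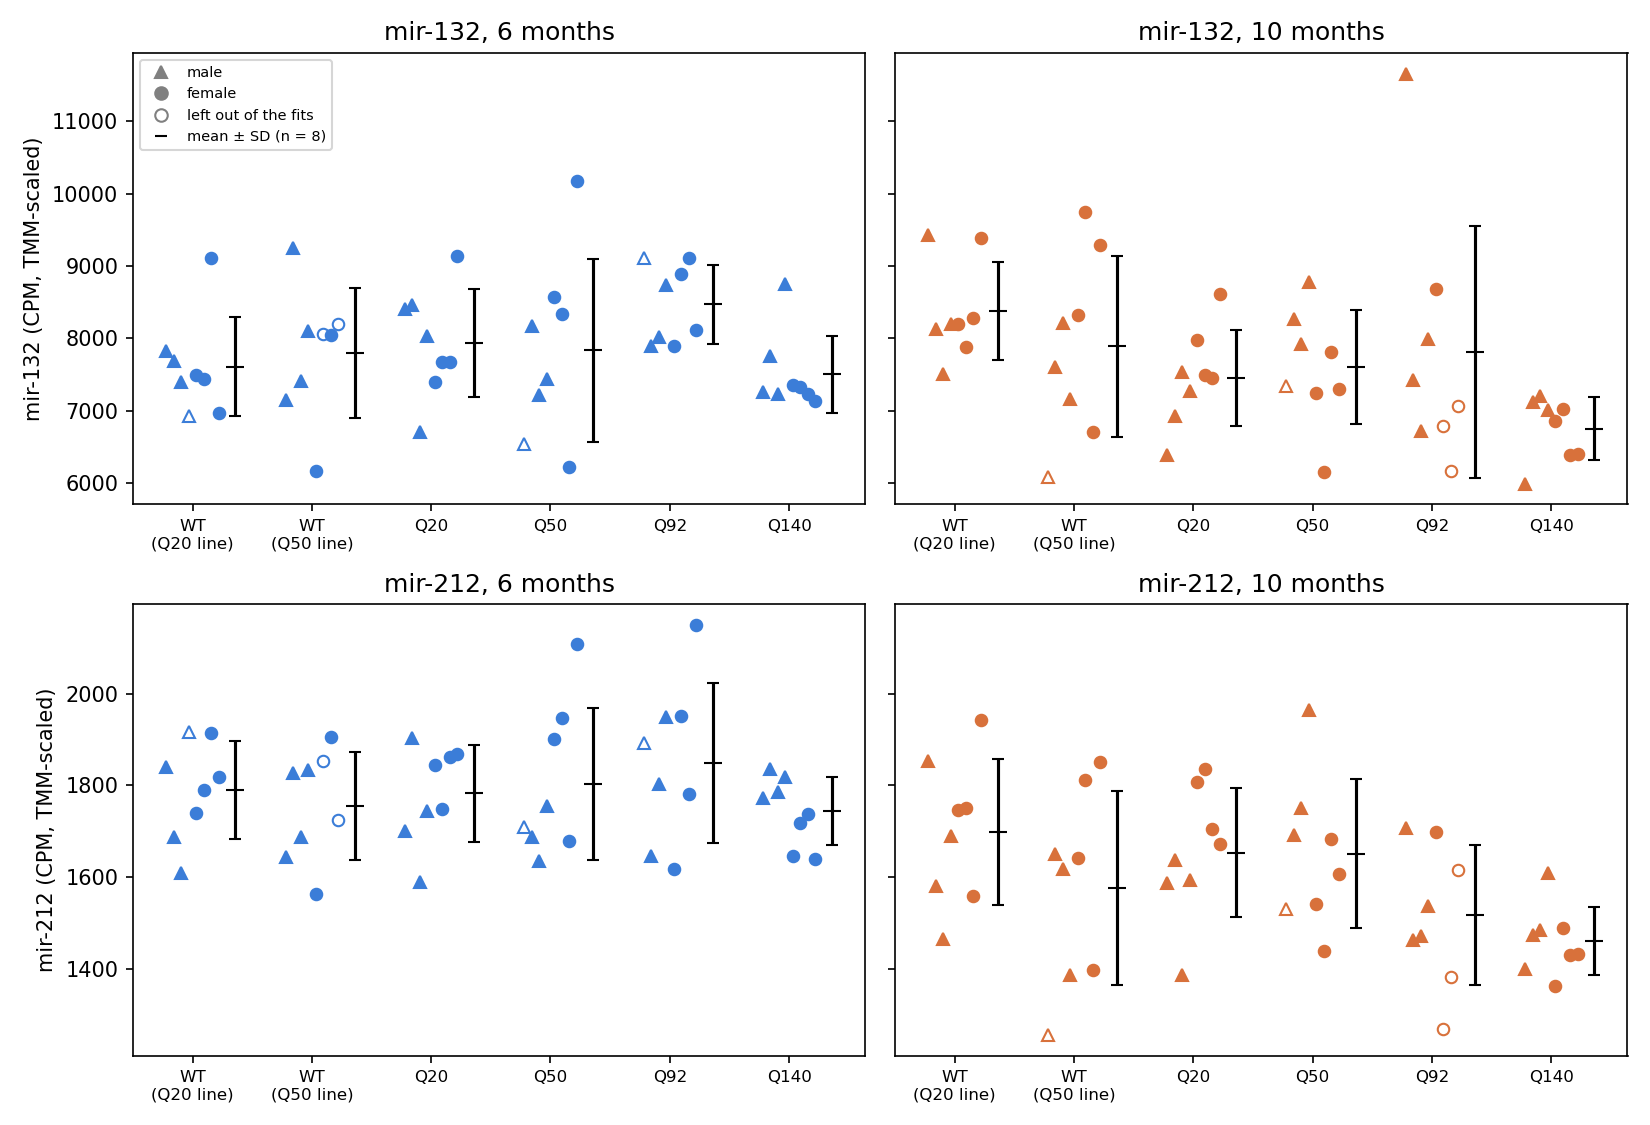
Level of mir-132 (top) and mir-212 (bottom) in CPM, in every library at 6 months (left) and 10 months (right), by genotype. Triangles are males, circles females, open symbols libraries left out of the fits, and bars the mean ± SD of 8 libraries. At 10 months the 8 Q140 libraries lie between 5988 and 7207 CPM for mir-132 and between 1362 and 1609 CPM for mir-212.

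At 10 months both members were lowest in Q140 mice, by median and by mean, and every Q140 library lay below the control median. mir-132 had a lowest, median and highest level of 5988, 6931 and 7207 CPM in Q140 mice, against 6081, 7933 and 9749 CPM in controls. mir-132 averaged 6749 ± 435 CPM in Q140 mice and 7907 ± 950 CPM in controls (SD, n = 8 and 24). For mir-132, 8 of 8 Q140 libraries were under the control median and 1 was under the lowest control, so the ranges overlapped.

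mir-212 showed the same order at 10 months. Its lowest, median and highest levels were 1362, 1453 and 1609 CPM in Q140 mice, against 1256, 1646 and 1943 CPM in controls. Again 8 of 8 Q140 libraries were under the control median, and none was under the lowest control. That control, male 1 of the WT of the Q50 line, was left out of the fits. Among the kept controls the lowest level of mir-212 was 1387 CPM, above the lowest Q140 library. The same library was the lowest control for mir-132, where the lowest kept control had 6383 CPM. mir-212 averaged 1460 ± 74.4 CPM in Q140 mice and 1643 ± 173 CPM in controls (SD, n = 8 and 24).

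Neither difference at 10 months passed the threshold of a false discovery rate (FDR) of 0.05 in the edgeR quasi-likelihood test, with sex and the L field as covariates. The log2 change of mir-132 was -0.22 ± 0.06 (SE, 8 Q140 and 23 control libraries), with edgeR FDR 0.110, at place 5 of 453 stem-loops by p-value. That of mir-212 was -0.17 ± 0.05, with edgeR FDR 0.113, at place 8 of 453. In this comparison 3 of 453 stem-loops, 0.662%, were called. With the DESeq2 Wald test, the kind of test the study used, both members passed. DESeq2 gave mir-132 -0.23 and mir-212 -0.18, each at FDR 0.0345, in a test that called 2.43% of stem-loops. Against WT mice alone, mir-132 passed (-0.29, edgeR FDR 0.00787) and mir-212 did not (-0.19, edgeR FDR 0.0526).

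The Q140 difference at 10 months had the same sign within each value of the L field and in each sex. For mir-132 the mean log2 difference from controls was -0.25 in L2 (6 Q140 libraries) and -0.15 in L3 (2 libraries), and for mir-212 it was -0.21 in L2 and -0.07 in L3. By sex, mir-132 differed by -0.14 in males and -0.31 in females, and mir-212 by -0.06 in males and -0.27 in females. The lower value in females was not particular to Q140. For mir-132 males and females differed from controls by 0.14 and -0.21 in Q92, and 0.11 and -0.21 in Q50. For mir-212 these values were -0.0093 and -0.22 in Q92, and 0.16 and -0.14 in Q50. Mean mir-132 in males and females was 6829 and 6668 CPM in Q140 and 7031 and 7882 CPM in Q20. It was 7263 and 8516 CPM in the WT of the Q50 line, and 8316 and 8437 CPM in that of the Q20 line. Whether CAG length acted differently in males and females was tested by an interaction, given below. In bulk tissue, fewer cells of a type and less RNA per cell cannot be told apart.

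**Figure D2:**
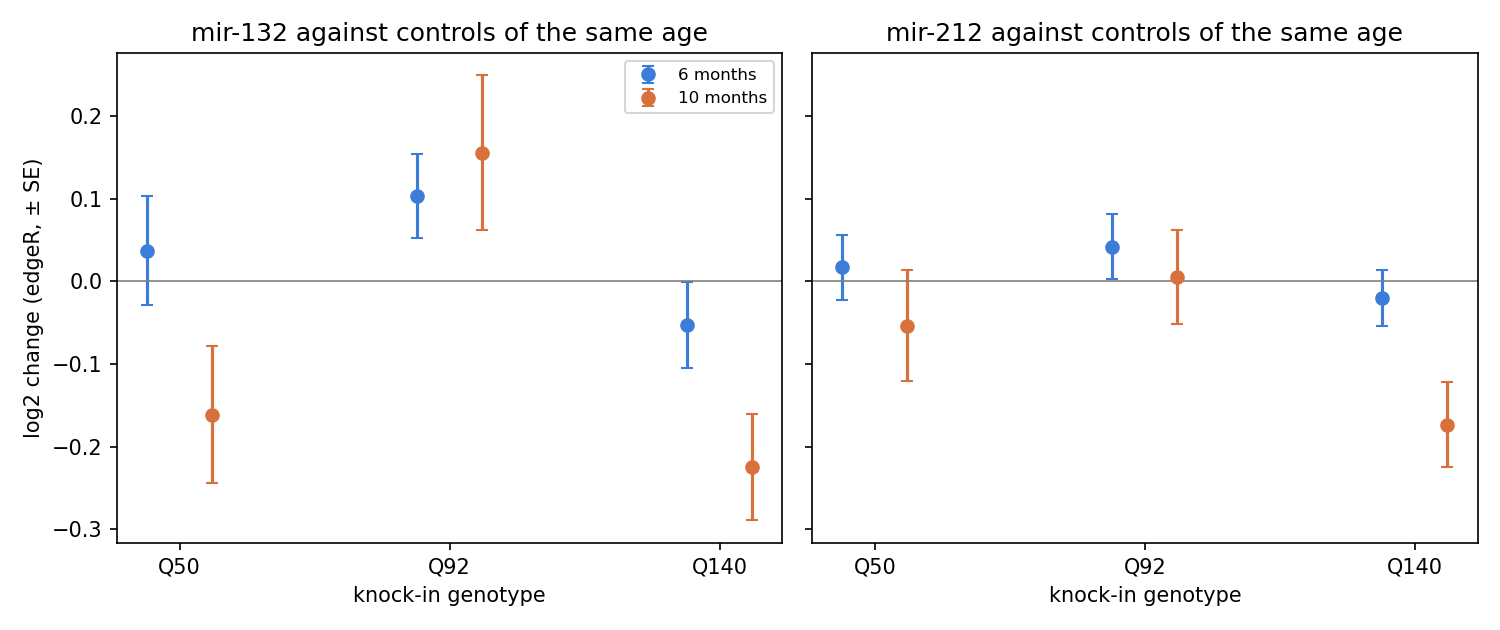
Log2 change of mir-132 (left) and mir-212 (right) in Q50, Q92 and Q140 mice against controls of the same age, fitted by edgeR, with bars of ± 1 SE. At 10 months the Q140 values are -0.22 and -0.17. No point passed FDR 0.05 in edgeR.

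At 6 months neither member was called in Q140 mice, where edgeR called 1.8% of stem-loops. mir-132 had a lowest, median and highest level of 7138, 7287 and 8747 CPM in Q140 mice, against 6166, 7676 and 9244 CPM in controls. mir-212 had 1639, 1755 and 1837 CPM in Q140 mice, against 1563, 1805 and 1915 CPM in controls. All Q140 libraries lay inside the control range. The log2 change was -0.05 ± 0.05 for mir-132 (edgeR FDR 0.598) and -0.02 ± 0.03 for mir-212 (edgeR FDR 0.791), with 8 Q140 and 21 control libraries.

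In Q92 mice at 6 months mir-132 was above the control median in 8 of 8 libraries, a position opposite to that of Q140 at 10 months. Its lowest, median and highest levels were 7888, 8424 and 9111 CPM in Q92 mice, against 6166, 7676 and 9244 CPM in controls, so all Q92 libraries were inside the control range. The log2 change of 0.10 ± 0.05 did not pass (edgeR FDR 0.205, 7 Q92 and 21 control libraries), in a comparison where 12.1% of stem-loops were called. mir-212 had 1617, 1847 and 2150 CPM in Q92 mice, against 1563, 1805 and 1915 CPM in controls, and 3 Q92 libraries were above the highest control. Its log2 change was 0.04 ± 0.04 (edgeR FDR 0.559). Those 3 libraries all carried L1. Over all libraries, the mean log2 difference of mir-212 from controls was 0.15 in L1 and -0.05 in L2 (4 Q92 libraries each). Its sign thus differed between values of the L field. For mir-132 the difference was 0.14 in L1 and 0.11 in L2.

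The fitted change of mir-132 in Q92 mice at 10 months depended on which libraries entered. The lowest, median and highest levels of mir-132 were 6170, 7243 and 11664 CPM in Q92 mice, against 6081, 7933 and 9749 CPM in controls. Of the 8 Q92 libraries, 5 were under the control median. The highest, male 1, was also the shallowest library of the series. In the 5 libraries kept for the fit the log2 change was 0.16 ± 0.09 (edgeR FDR 0.624), and it was -0.00048 without male 1 and 0.017 with all 8 libraries. mir-212 had 1269, 1504 and 1706 CPM in Q92 mice, against 1256, 1646 and 1943 CPM in controls, with a log2 change of 0.0054 ± 0.06 (edgeR FDR 0.969). edgeR called 0% of 458 stem-loops here at FDR 0.05, DESeq2 called 0, and 40 had an unadjusted p under 0.05.

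Since the highest mir-132 library was the shallowest, depth was set against level over all libraries, and no correlation passed the test after adjustment. For mir-132 the correlation between log2 total count and log2 CPM, both as deviations from group means, was r = -0.19 (n = 96, permutation p = 0.148, adjusted p = 0.517 over 14 relations) with rho = -0.014 (permutation p = 0.902). Without the 2 libraries farthest from the median depth r was -0.0070. It was -0.30 at 6 months (adjusted permutation p = 0.268) and -0.17 at 10 months (adjusted permutation p = 0.589). Within values of the L field it lay between -0.44 and 0.12. For mir-212 the correlation over 96 libraries was r = -0.041 with rho = 0.023 (permutation p = 0.746 and 0.842).

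Q50 mice, with the shortest repeat tested against controls, overlapped the controls at both ages. At 10 months mir-132 had a lowest, median and highest level of 6156, 7576 and 8782 CPM in Q50 mice, against 6081, 7933 and 9749 CPM in controls, and mir-212 had 1440, 1644 and 1965 CPM in Q50 mice, against 1256, 1646 and 1943 CPM in controls. The log2 changes were -0.16 ± 0.08 for mir-132 (edgeR FDR 0.667) and -0.05 ± 0.07 for mir-212 (edgeR FDR 0.889). For mir-132 it was -0.05 with sex alone as a covariate, and the 2 Q50 libraries in L1, where no control lies, do not inform the difference from controls once the L field is a term. Over all 8 Q50 libraries of 10 months, the mean log2 difference from controls had opposite signs in the sexes. It was 0.11 in males and -0.21 in females for mir-132, and 0.16 and -0.14 for mir-212. At 6 months mir-132 had 6222, 7806 and 10181 CPM in Q50 mice, against 6166, 7676 and 9244 CPM in controls, a log2 change of 0.04 (edgeR FDR 0.976). mir-212 at 6 months had 1635, 1732 and 2109 CPM in Q50 mice, against 1563, 1805 and 1915 CPM in controls, a log2 change of 0.02 (edgeR FDR 0.978). For Q50 edgeR called 0% of stem-loops at either age at FDR 0.05, with 56 at 6 months and 31 at 10 months under an unadjusted p of 0.05. DESeq2 called 4 and 1.

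Over all libraries Q140 had the lowest median of both members at 10 months, and the place of Q92 depended on the library screen. The median level of mir-132 at 10 months was 8197 CPM in the WT of the Q20 line, 7905 CPM in the WT of the Q50 line, 7468 CPM in Q20, 7576 CPM in Q50, 7243 CPM in Q92 and 6931 CPM in Q140 mice. At 6 months it was 7466, 8052, 7850, 7806, 8424 and 7287 CPM in the same order of groups, highest in Q92 and lowest in Q140. For mir-212 the medians in that order were 1718, 1629, 1655, 1644, 1504 and 1453 CPM at 10 months, and 1805, 1775, 1796, 1732, 1847 and 1755 CPM at 6 months. These medians include the libraries left out of the fits. In the kept libraries at 10 months, those of mir-132 were 8197, 8207, 7468, 7811, 7997 and 6931 CPM in the same order, so that Q92 lay above Q20 and Q50 and only Q140 stayed lowest. Those of mir-212 were 1718, 1641, 1655, 1683, 1536 and 1453 CPM, with Q140 lowest and Q92 next. Neighbouring groups in the order of the medians over all 8 libraries, not of the kept ones, were compared by exact two-sided rank-sum tests. These 20 pairs over both ages and members gave adjusted p-values of 0.976 or more. Such pairs are picked for being close, so this says only that the order of adjacent groups was not resolved, and nothing of pairs further apart.

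With CAG length as a number, 7 for WT, the slopes were flat at 6 months and negative at 10 months. The slope per 100 repeats at 10 months was -0.14 ± 0.06 for mir-132 (edgeR FDR 0.422) and -0.13 ± 0.03 for mir-212 (edgeR FDR 0.0620), over 43 libraries. mir-212 was at place 6 of 483 stem-loops by p-value, of which 0.828% were called. At 6 months the slope was -0.0067 ± 0.04 for mir-132 (edgeR FDR 0.951) and -0.0015 ± 0.03 for mir-212 (edgeR FDR 0.978), where 14% of stem-loops were called.

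The 10-month slopes depended on the Q140 libraries. Without Q140 the slope was 0.05 for mir-132 (edgeR FDR 0.970) and -0.05 for mir-212, and without Q92 both members passed, at -0.20 for mir-132 (edgeR FDR 0.0139) and -0.14 for mir-212 (edgeR FDR 0.0230). Leaving out 1 library at a time, mir-212 passed only without WT male 3 of the Q20 line or without WT female 3 of the Q50 line. Its edgeR FDR ran from 0.0327 to 0.378, the highest without Q140 female 1. For mir-132 the edgeR FDR ran from 0.0501 to 0.852.

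The change of slope between ages, tested directly in a fit that took L2 as the same level at both ages, did not pass. The interaction of CAG length with age was -0.14 ± 0.07 for mir-132 (edgeR FDR 0.274) and -0.13 ± 0.05 for mir-212 (edgeR FDR 0.0699), in a test that called 1.08% of stem-loops. Nor did the interaction with sex. At 10 months the slope in males minus that in females was 0.17 ± 0.11 for mir-132 and 0.14 ± 0.07 for mir-212 (edgeR FDR 0.831 for both). That fit lacked the 3 Q92 females that the screen left out. With all libraries kept the difference was 0.23 for mir-132 and 0.20 for mir-212 (edgeR FDR 0.416 for both). At 6 months the difference was 0.01 for mir-132 (edgeR FDR 0.985) and 0.08 for mir-212 (edgeR FDR 0.942). The edgeR sex interaction called 0% of stem-loops at both ages, with 27 at 6 months and 24 at 10 months under an unadjusted p of 0.05. With all libraries kept, 53 were under that p at 10 months and 0 were called.

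Combined over ages as in the study, no member passed in edgeR. For Q140 the mean log2 change was -0.14 for mir-132 (edgeR FDR 0.0751) and -0.10 for mir-212 (edgeR FDR 0.136), where 1.14% of stem-loops were called. With DESeq2, which called 5.71% of stem-loops, both passed (FDR 0.0264 for mir-132 and 0.0393 for mir-212). For Q92 it was 0.13 for mir-132 (edgeR FDR 0.119) and 0.02 for mir-212 (edgeR FDR 0.681), with 6.88% of stem-loops called. Over the settings tried this Q92 value of mir-132 lay between 0.067 and 0.16, and its 10-month part was -0.00048 without male 1. For Q50, where 0% were called (26 with an unadjusted p under 0.05, and 1 by DESeq2), the mean log2 change was -0.06 for mir-132 and -0.02 for mir-212. The combined slope was -0.07 for mir-132 and -0.06 for mir-212, with edgeR FDR of 0.142 or more and 2.93% of stem-loops called.

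Q140 and Q92 mice, which carry the longest repeats, were also set against each other. At 6 months mir-132 was higher in every one of the 8 Q92 libraries than in 7 of the 8 Q140 libraries, and the log2 change of Q140 against Q92 was -0.17 ± 0.05 (edgeR FDR 0.215, 8 and 7 libraries). For mir-212 it was -0.07 ± 0.05 (edgeR FDR 0.653). At 10 months the change was -0.36 ± 0.12 for mir-132 (edgeR FDR 0.661, 8 and 5 libraries) and -0.11 ± 0.07 for mir-212 (edgeR FDR 0.673), and without Q92 male 1 that of mir-132 was -0.17 (edgeR FDR 0.846). edgeR called 0% of stem-loops at 6 months at FDR 0.05, with 46 under an unadjusted p of 0.05 and 4 by DESeq2, and 0.228% at 10 months.

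Within the short-repeat lines the largest difference of a member was in Q20 mice at 10 months, which belong to the controls above. mir-132 had a lowest, median and highest level of 6383, 7468 and 8613 CPM in Q20 mice, against 7511, 8197 and 9428 CPM in the WT of the Q20 line. The ranges overlapped, and the log2 change of -0.16 ± 0.06 did not pass (edgeR FDR 0.117, 8 libraries each), while 7.78% of stem-loops (35) were called. With the replicate block 0 were called, and over all settings 0 to 63. mir-212 had 1387, 1655 and 1835 CPM in Q20 mice, against 1465, 1718 and 1943 CPM in the WT of the Q20 line, a log2 change of -0.07 (edgeR FDR 0.455). At 6 months the changes were 0.06 for mir-132 and 0.0082 for mir-212 (edgeR FDR 0.996 and 0.997). Q50 mice against the WT of the Q50 line gave -0.13 for mir-132 and 0.0081 for mir-212 at 10 months, and 0.06 and 0.04 at 6 months, all with edgeR FDR of 0.886 or more. The WT of the Q50 line against the WT of the Q20 line gave -0.03 and -0.05 at 10 months and -0.01 and -0.0050 at 6 months, with edgeR FDR of 0.770 or more. Between the WT groups edgeR called 0.685% of stem-loops at 10 months. At 6 months it called 0% there, with 50 under an unadjusted p of 0.05 and 10 by DESeq2. For Q50 against its WT and for Q20 against its WT at 6 months it also called 0%, with 9, 19 and 23 under an unadjusted p of 0.05 for Q50 at 6 months, Q50 at 10 months and Q20, and 0 by DESeq2.

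The ratio of the members varied about as much as their levels. Over the 96 libraries the coefficient of variation was 9.60% for the ratio, 12.6% for the CPM of mir-132 and 10.5% for that of mir-212. mir-212 counts were 21.9% ± 2.11 of mir-132 counts on average (SD, n = 96). In Q140 mice at 10 months the ratio was 21.7% ± 1.27, against 20.9% ± 1.83 in controls, and in Q140 mice at 6 months it was 23.3% ± 1.27, against 23.0% ± 1.89 in controls. The log2 difference in Q140 mice was 0.06 ± 0.04 at 10 months (exact two-sided rank-sum p = 0.147, or 0.295 when adjusted over the 6 comparisons) and 0.02 ± 0.04 at 6 months (exact rank-sum p = 0.480, adjusted p = 0.576). For none of the 6 comparisons of Q50, Q92 and Q140 did the adjusted p fall under 0.295.

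The choice of controls moved the ratio. The 10-month ratio was 22.3% ± 2.31 in Q20 mice, against 20.1% ± 0.973 in the WT of the Q50 line and 20.3% ± 1.12 in the WT of the Q20 line (SD, n = 8 each). Against the 16 WT libraries alone, the ratio at 10 months was higher in Q140 mice by 0.10 on the log2 scale (adjusted exact rank-sum p = 0.0262) and in Q50 mice by 0.11 (adjusted exact rank-sum p = 0.0214), with 8 of 8 libraries above the WT median in both.

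**Figure D3:**
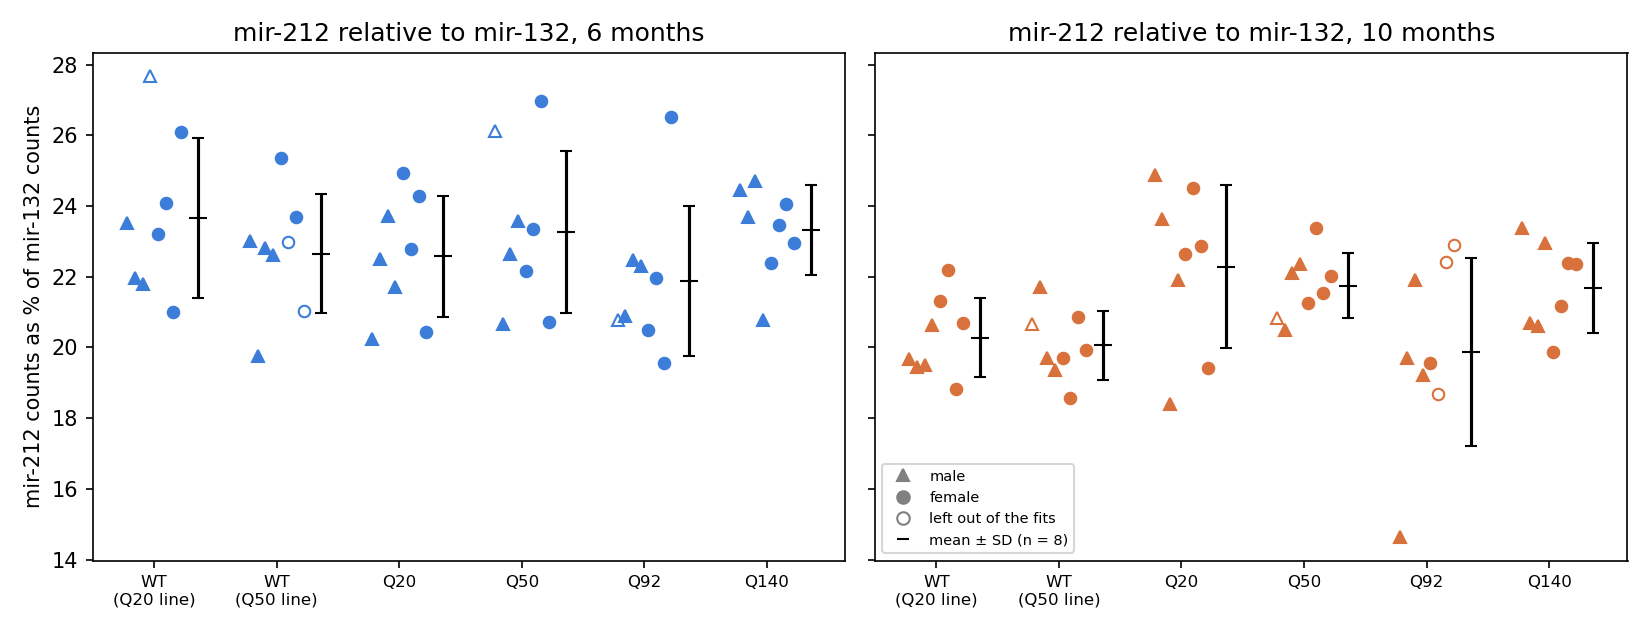
mir-212 counts as a percentage of mir-132 counts in every library, at 6 months (left) and 10 months (right), with symbols as for the levels and bars of mean ± SD of 8 libraries. At 10 months the WT groups of the Q50 and Q20 lines average 20.1% and 20.3%, and Q92 male 1 is the lowest library at 14.6%.

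Within groups, libraries with more mir-132 had more mir-212. The deviations of log2 CPM from the group means correlated over 96 libraries with r = 0.69 (permutation p = 1e-05) and rho = 0.66 (permutation p = 1e-05), the smallest p that 100000 permutations within groups can give, and r was 0.68 without the 2 libraries farthest from the median of mir-132. Adjusted over the 8 correlations computed, p was 2e-05 for r and 2.7e-05 for rho. r was 0.61 at 6 months and 0.75 at 10 months. Within values of the L field it was 0.68 and 0.52 at 6 months and 0.75 and 0.71 at 10 months, with adjusted permutation p of 0.0163 or less, and rho for the 21 libraries of L2 at 6 months did not pass (adjusted permutation p = 0.0615). The 86 kept libraries gave r = 0.69. Both values of a library share its total, which also sets the scale of both.

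**Figure D4:**
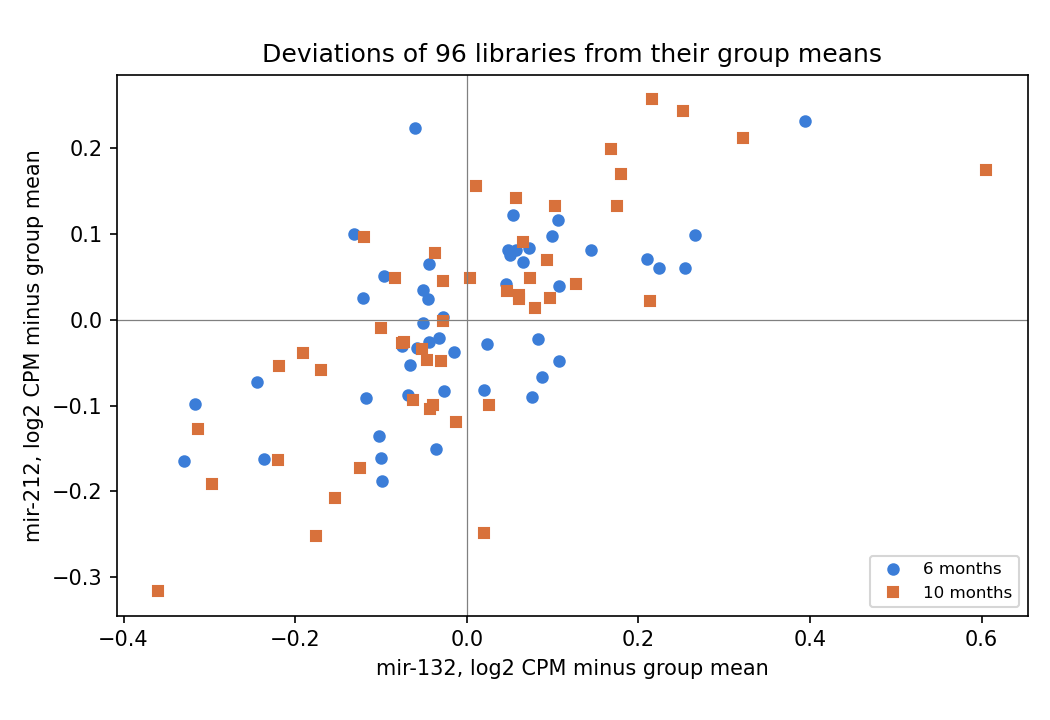
Log2 CPM of mir-212 against that of mir-132, each minus the mean of its group, for 96 libraries (circles 6 months, squares 10 months). The points follow a rising band with r = 0.69.

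Among the 310 stem-loops with a mean of at least 10 CPM, mir-132 was the most similar to mir-212 by this correlation, and mir-212 was the second most similar to mir-132. The stem-loop MI0000141 came first for mir-132 (r = 0.73), and MI0000726 came next after mir-132 for mir-212 (r = 0.68). The median r over all 310 was 0.038 for mir-132 and 0.023 for mir-212. These are descriptions over 96 libraries.

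Between ages, only mir-212 was called, and narrowly. In control mice mir-212 averaged 1643 ± 173 CPM at 10 months and 1776 ± 107 CPM at 6 months (SD, n = 24 each), and mir-132 averaged 7907 ± 950 CPM at 10 months and 7778 ± 763 CPM at 6 months. The log2 change of 10 against 6 months was -0.08 ± 0.03 for mir-212 (edgeR FDR 0.0488, 23 and 21 libraries), and 0.05 ± 0.04 for mir-132 (edgeR FDR 0.342). 44.1% of stem-loops were called in this comparison and the L field was not a term of the fit. Among control libraries that carry L2, mir-212 averaged 1681 ± 158 CPM at 10 months and 1790 ± 109 CPM at 6 months (SD, 16 and 11 libraries). The sample names repeat the same L2 codes on different libraries at both ages, so L2 need not be a shared batch. The labels do not say whether libraries of both ages were made together, so age and library preparation cannot be told apart here. The call of mir-212 was lost with DESeq2 size factors (edgeR FDR 0.0782) and with the DESeq2 test (FDR 0.0700). No difference between males and females passed. The log2 change of males against females was -0.01 ± 0.03 for mir-132 (edgeR FDR 0.901) and -0.05 ± 0.02 for mir-212 (edgeR FDR 0.318), with 43 libraries of each sex and 1.25% of stem-loops called.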

How the data were processed

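The methods of the study describe adapter clipping, alignment to mm10 with STAR at default settings and counting with HTSeq, and the submitters' processing notes name CASAVA 1.8.2. The authors deposited an estimated count per stem-loop and library, not normalized, and FPKM values. For the tests the estimated counts were rounded, and those of both members were already whole in every library. FPKM values were used only to compare the members per length. Each FPKM value implied a length of 66 bases for mir-132 and 91 for mir-212, their hairpin lengths in RefSeq.

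Libraries were screened at each age by connectivity in a Euclidean distance network of variance-stabilized counts, and a robust Z under -5 left out 10 of 96. The models were run in R 4.3.3 with edgeR 4.0.16 (robust quasi-likelihood test, TMM, filterByExpr), and p-values were adjusted by Benjamini-Hochberg over every stem-loop in the test, with FDR 0.05 as the threshold. Log2 CPM were correlated with 100000 permutations within groups. The study used DESeq2 on counts with outlying values replaced, run here with DESeq2 1.42.0 as an alternative, in which 1 of 86 values of mir-132 (Q92 male 1 at 10 months) was replaced. Rank tests used scipy 1.17.1.

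Same-numbered libraries did not deviate together. No 2 libraries of a group agreed within sampling noise (336 pairs). The members, lists and tests were chosen with earlier results of these data known. The text was to name both members in every comparison, the 5 stem-loops most similar to each by correlation, of which only the first other one is named, and members of a list of activity-regulated and REST-linked microRNAs. That list, the marker lists and a covariate built from named microRNAs were not run, since no file pairs identifiers with names. No promoter was examined.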

Additional observations from a re-analysis of the deposited data

Results flagged for a closer look

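Of 36 group tests of a single high or low library (mir-132, mir-212 and their ratio in 12 groups), 4 found one far from the other 7, where chance gives about 1 in 20 groups. For mir-132 these were the highest libraries of Q140 at 6 months (male 4, 8747 CPM, next 7752 CPM), of the WT of the Q20 line at 6 months (female 3, 9113 CPM, next 7820 CPM) and of Q92 at 10 months (male 1, 11664 CPM, next 8686 CPM). The Q140 and Q92 libraries had the lowest totals of their ages, 4797428 and 3698376 counts, and the part of depth in their levels was not tested further. For the ratio it was Q92 female 4 at 6 months, with mir-212 at 26.5% of mir-132 counts and the next library at 22.5%.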

How the results depend on the processing

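Of 426 values of 56 results under other settings, 381 kept their direction and their side of the threshold, 19 newly passed FDR 0.05, 3 no longer passed and 23 turned sign. The cause was not tested except where fewer libraries entered. The component and the wider screen, and the omission of single Q92 libraries, were chosen after seeing the data. For Q140 at 10 months, mir-132 passed at -0.23 (DESeq2), -0.29 (WT alone) and -0.25 (first principal component as covariate, FDR 0.0331), and mir-212 at -0.18 (DESeq2), -0.16 (mean of at least 10 CPM, FDR 0.0469) and -0.19 (component, FDR 0.0388). Combined over ages, Q140 passed for mir-132 at -0.14 (DESeq2), -0.14 (at least 10 CPM) and -0.17 (component), for mir-212 at -0.10 (DESeq2) and -0.10 (at least 10 CPM), and Q92 passed for mir-132 at 0.16 (component). The 10-month slope passed without Q92 at -0.20 for mir-132 and -0.14 for mir-212, and for mir-212 with DESeq2 at -0.13 (FDR 0.0291). Without Q140 the slope of mir-132 was 0.049 at 10 months and 0.14 at 6 months, and that of mir-212 0.059 at 6 months. mir-132 also passed in Q20 against its WT at 10 months with sex alone (-0.20, FDR 0.0404) and in Q140 against Q92 at 10 months with the component (-0.57, FDR 0.0211). The age difference of mir-212 no longer passed at -0.069 (DESeq2 size factors), -0.068 (DESeq2) and -0.085 (no filter). The ratio passed at 10 months against WT alone, at 0.10 in Q140 and 0.11 in Q50.

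Apart from leaving out single libraries, the other changes of sign were in values within 0.1 of 0, and no value that changed sign was past the threshold in either setting. For mir-212 in Q92 at 10 months the log2 change was -0.0016 without a filter, -0.0055 at 10 CPM or more, -0.075 with all libraries, -0.025 with sex alone, -0.0075 with the replicate block and -0.026 against WT alone. With all libraries it was also -0.011 for Q92 over both ages, -0.0087 for Q20 against its WT at 6 months and -0.011 for Q50 against its WT at 10 months. That last value was -0.0047 with DESeq2 size factors, -0.0054 with DESeq2 and -0.013 at 10 CPM or more. mir-212 in Q50 was 0.020 at 10 months and 0.021 over both ages with sex alone. The 6-month slope was 0.00078 for mir-132 with all libraries, and for mir-212 0.0013 with sex alone and 8.7e-05 without Q20. mir-132 between the WT groups at 6 months was 0.036 with all libraries. The replicate block changed no call of either member. Among all stem-loops it left 0 of 35 calls in Q20 against its WT at 10 months and gave 2 in place of 0 between the WT groups at 6 months. It gave -0.047 for mir-132 and -0.026 for mir-212 in Q50 against its WT at 6 months. Same-numbered libraries had a median correlation of -0.071 at 6 months and 0.041 at 10 months, and 8 and 3 of 48 correlated best with their own number.

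Leaving out 1 library at a time gave slopes of -0.17 to -0.12 for mir-132 and -0.14 to -0.10 for mir-212 at 10 months, and -0.026 to 0.0070 and -0.015 to 0.010 at 6 months. Q92 at 10 months ranged from -0.00048 to 0.22 for mir-132 and from -0.024 to 0.027 for mir-212, and Q140 against Q92 from -0.42 to -0.17 and from -0.14 to -0.057. Stem-loops called over settings numbered 2 to 33 (8 in the reported fit) for Q140 and 30 to 76 (53) for Q92 at 6 months, 3 to 16 (3) for Q140 and 0 to 8 (0) for Q92 at 10 months, 9 to 69 (62) and 0 to 9 (4) for the slopes at 6 and 10 months, 5 to 33 (5) for their interaction with age, 0 to 63 (35) for Q20 against its WT, 0 to 21 (3) between the WT groups and 0 to 27 (1) for Q140 against Q92 at 10 months, and 2 to 25 (5) for Q140, 12 to 47 (30) for Q92 and 2 to 27 (13) for the slope over both ages. For males against females they numbered 4 to 12 (6), and for Q50 at 6 months 0 to 4 (0). The covariate of named microRNAs was not run. Counting error was small for both members beside the spread between libraries.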
